A study of Mus musculus with 34 samples.

Results

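The adult hepatocyte is kept in its state by a small group of transcription factors, and the genes that encode 9 of them were examined here as binding targets of HDAC3, PROX1 and HNF4α in mouse liver. The genes were *Hnf4a*, *Foxa1*, *Foxa2*, *Foxa3*, *Cebpa*, *Cebpb*, *Onecut1*, *Prox1* and *Nr5a2*, out of 22359 protein-coding genes of the mm9 annotation. A peak was assigned to a gene when its centre lay between 50 kb upstream of the transcription start site (TSS) and 2 kb past the end of the gene. These 9 windows held 62 of the 28631 HDAC3 or PROX1 peaks and 49 of the 24253 HNF4α peaks. The rule takes the genes by name and uses no measured value, although the list was drawn up with earlier results of these data known.

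The chromatin came from livers of male C57B/6 mice aged 10 weeks and collected at zeitgeber time 10 (ZT10), which is late in the light phase. HDAC3 and PROX1 were precipitated from livers labelled Control, with 3 libraries each, and HNF4α from the 2 libraries of *Hnf4a* floxed livers that had received an AAV8 vector expressing EGFP from the hepatocyte TBG promoter in place of Cre. The authors pooled the libraries of each factor before calling peaks and deposited 1 list per factor, so there was no spread between livers, the depth behind a peak was unknown, and no difference between groups could be tested. Shares are given with 95% Wilson intervals. These reflect the number of peaks counted and nothing else, and they treat nearby peaks as separate although such peaks can share an origin. Where 0 peaks were counted, the share that 3 counts would make is given as the limit, with the upper Wilson bound beside it.

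HDAC3 is the histone deacetylase of the NCoR corepressor complex, PROX1 is a homeodomain protein of the hepatocyte lineage and HNF4α is a nuclear receptor that binds a large part of the active hepatocyte genome. The hepatocyte factors are known to bind the regulatory DNA of their own and each other's genes, and this mutual binding is thought to hold the cell type in place. FOXA proteins open chromatin during liver development, C/EBP proteins control metabolic and acute phase genes, ONECUT1 acts in hepatobiliary development and NR5A2 controls bile acid and cholesterol genes.

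A peak with identical coordinates in the HDAC3 and PROX1 lists is called co-bound, and it is called triply bound when in addition 1 HNF4α peak covered at least 50% of its 200 bp. The remaining peaks are HDAC3-only or PROX1-only. Positions are those of peak centres relative to the start of the gene, in kb along the direction of transcription, with negative values upstream. The HNF4α list alone gave a value per peak, the HOMER score of the authors, which ranks peaks within that list.

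The sequences of the peaks on which the description turns are given first, as 200 bp of mm9 read 5′ to 3′ on the forward strand. The 4 triply bound peaks shown first are from different genes and were the peak with the highest HNF4α score of that class in *Hnf4a*, *Foxa2*, *Foxa3* and *Nr5a2*. The last sequence is the co-bound peak under the highest HNF4α score at *Hnf4a*, which was chosen after its value was seen. Capitals mark CAAAG or its complement CTTTG, the core of the HNF4α recognition sequence.
Hnf4a intron, chr2:163367431-163367630: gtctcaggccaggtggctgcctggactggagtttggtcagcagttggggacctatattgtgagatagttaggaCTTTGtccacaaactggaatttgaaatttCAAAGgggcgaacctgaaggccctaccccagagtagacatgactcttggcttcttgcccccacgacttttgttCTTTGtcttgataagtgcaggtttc
Foxa2 promoter, chr2:147872782-147872981: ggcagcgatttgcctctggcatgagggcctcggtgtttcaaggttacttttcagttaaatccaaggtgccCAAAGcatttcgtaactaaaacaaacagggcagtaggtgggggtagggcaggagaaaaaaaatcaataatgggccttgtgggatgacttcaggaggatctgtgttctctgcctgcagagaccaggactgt
Foxa3 intron, chr7:19601469-19601668: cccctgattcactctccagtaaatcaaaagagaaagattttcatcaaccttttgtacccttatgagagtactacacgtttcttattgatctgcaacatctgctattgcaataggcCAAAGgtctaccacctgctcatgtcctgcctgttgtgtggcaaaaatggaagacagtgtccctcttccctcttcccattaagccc
Nr5a2 intron, chr1:138826391-138826590: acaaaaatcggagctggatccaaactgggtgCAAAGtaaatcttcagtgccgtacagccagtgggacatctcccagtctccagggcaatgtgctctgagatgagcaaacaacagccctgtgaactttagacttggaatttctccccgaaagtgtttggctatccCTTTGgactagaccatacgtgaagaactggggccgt
Hnf4a intron under the highest HNF4α score, chr2:163366356-163366555: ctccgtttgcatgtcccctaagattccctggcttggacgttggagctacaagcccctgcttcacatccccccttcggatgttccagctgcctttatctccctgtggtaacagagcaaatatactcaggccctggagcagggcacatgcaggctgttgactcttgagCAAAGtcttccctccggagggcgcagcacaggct

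The triply bound *Hnf4a* peak held 3 copies of the core, the *Nr5a2* peak 2, and the *Foxa2*, *Foxa3* and higher scoring *Hnf4a* peaks 1 each. Copies were counted over the whole 200 bp, not only the part covered by HNF4α. The last copy of the triply bound *Hnf4a* peak lies past the end of its HNF4α peak, at 163367559. At least 1 copy was present in 16 of the 23 triply bound peaks of the windows (69.6%) against 70% of all triply bound peaks, and at least 3 copies in 5 of 23 against 10.1%. Such a short match is common, as these shares show, and the letters were chosen after the sequences were seen.

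2 of the 4 HDAC3-only peaks are shown for contrast, from the HNF4α gene and from *Nr5a2*. Capitals mark GGTCA or its complement TGACC, the half-site bound by many nuclear receptors.
Hnf4a HDAC3-only promoter peak, chr2:163372704-163372903: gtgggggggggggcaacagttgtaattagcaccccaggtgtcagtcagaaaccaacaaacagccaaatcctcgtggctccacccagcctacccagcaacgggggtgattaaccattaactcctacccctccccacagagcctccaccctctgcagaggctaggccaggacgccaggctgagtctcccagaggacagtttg
Nr5a2 HDAC3-only intron peak, chr1:138833650-138833849: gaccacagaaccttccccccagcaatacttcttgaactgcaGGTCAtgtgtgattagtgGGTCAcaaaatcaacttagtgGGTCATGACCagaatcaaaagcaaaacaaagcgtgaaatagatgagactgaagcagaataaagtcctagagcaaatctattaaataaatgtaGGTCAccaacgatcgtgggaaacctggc

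The *Hnf4a* peak held none of these half-sites, whereas the *Nr5a2* peak held 5, of which 2 lie head to head. Neither HDAC3-only peak at *Cebpb* held one, so 1 of the 4 HDAC3-only peaks of the windows (25%) did. At least 1 half-site occurred in 63.7% and at least 5 in 2.07% of all HDAC3-only peaks.

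All 9 windows held at least 1 co-bound peak, against 38.4% of the windows of all protein-coding genes. The number ranged from 1 at *Foxa1* and *Foxa2* to 12 at *Nr5a2*, with a median of 3 against 0 over all genes and a mean of 4.78 against 1.21. Windows differ in length, and per 10 kb of window the members ranged from 0.174 at *Foxa1* to 1.46 at *Cebpa*, with a mean of 0.55 against 0.138 over all genes. Triply bound peaks were present in 8 of the 9 windows against 31.1% of all, the exception being *Onecut1*. PROX1-only peaks were present at 4 genes against 25.2% of all and HDAC3-only peaks at 3 genes against 7.4%. HNF4α peaks lay in 8 of the 9 windows against 49.7%.

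**Figure D1:**
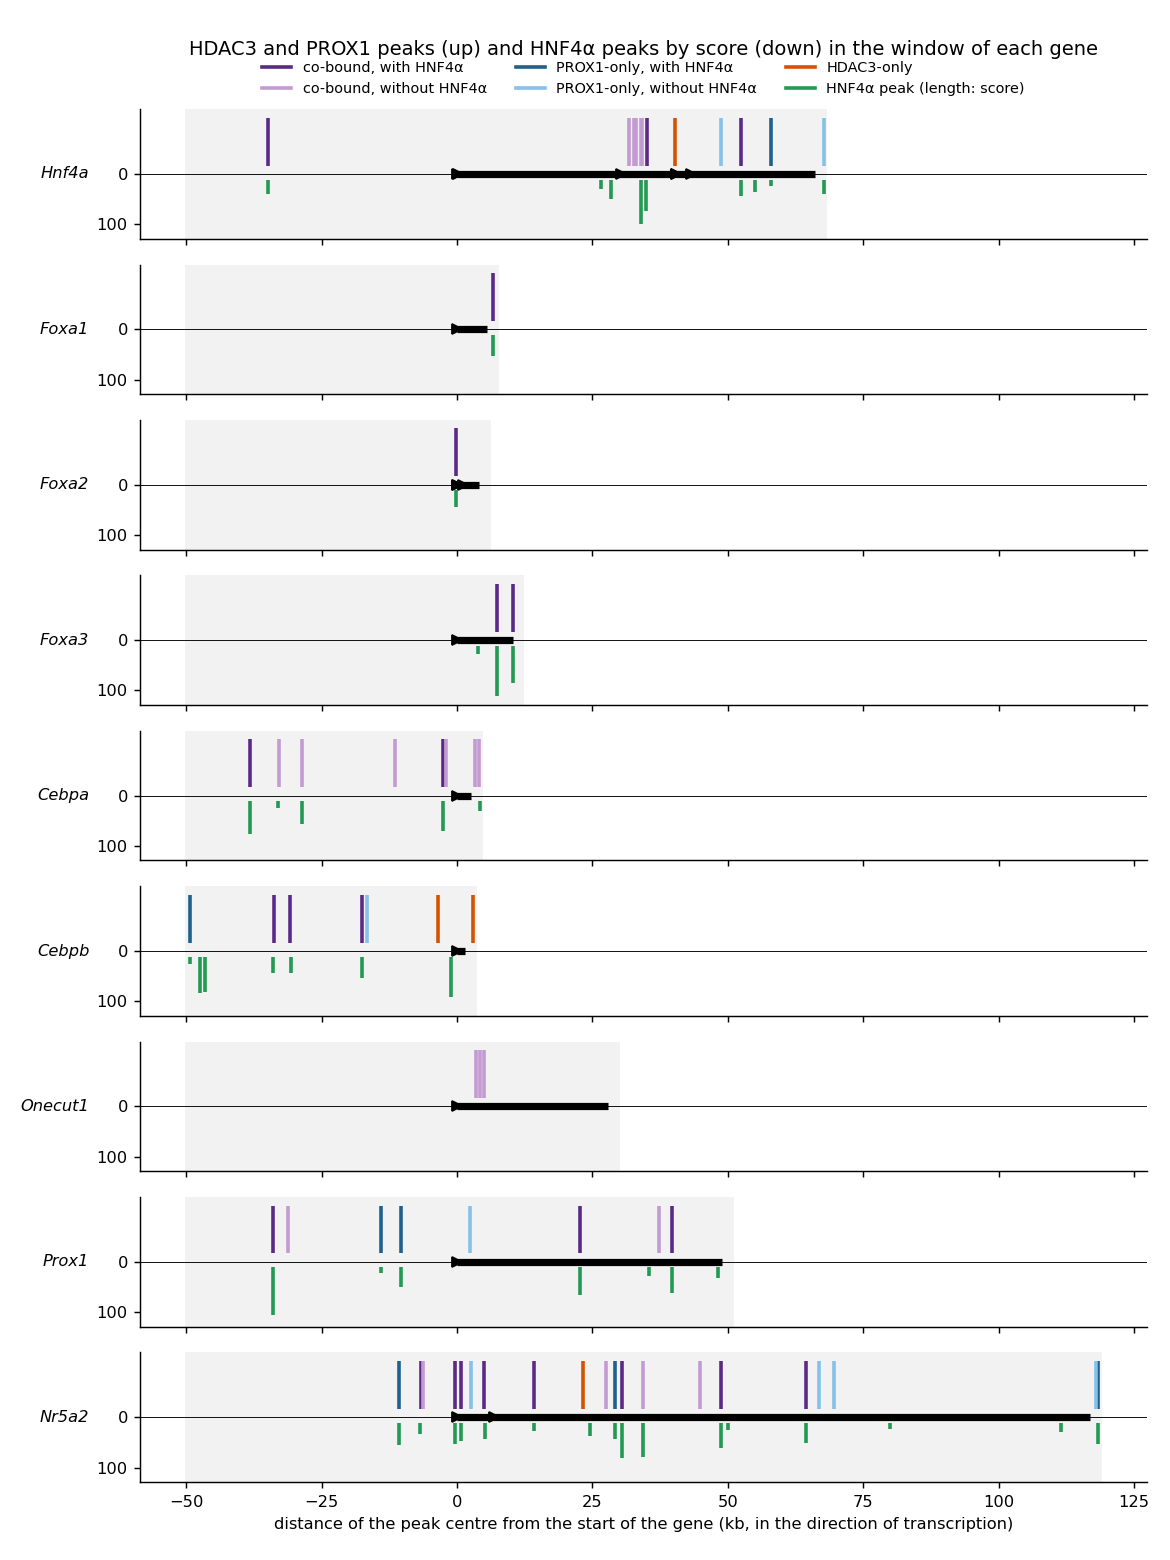
Positions of peaks in the windows of the 9 genes. The x axis is the distance of the peak centre from the gene start in kb along transcription, the grey area is the window, the black bar is the gene and black arrowheads are annotated starts. Coloured lines above the bar are HDAC3 or PROX1 peaks by class and green lines below it are HNF4α peaks, drawn as long as their score. The 6 co-bound peaks bunched before the third group of starts of *Hnf4a* and the 3 in the first part of *Onecut1*, which has no green line, can be seen.

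Over the 9 windows, 43 peaks were co-bound, 15 were PROX1-only and 4 were HDAC3-only. Of the HDAC3 peaks, 91.5% (95% CI 80.1 to 96.6) were co-bound, against 94.3% in the whole list. Of the PROX1 peaks, 74.1% (95% CI 61.6 to 83.7) were co-bound, against 73.1%. Both shares lay near those of all peaks. Of the 43 co-bound peaks, 23 were triply bound, or 53.5% (95% CI 38.9 to 67.5), against 61.3% of all co-bound peaks. Of the PROX1-only peaks 7 of 15 carried HNF4α, or 46.7% (95% CI 24.8 to 69.9), against 36.7%. None of the 4 HDAC3-only peaks did, and 0 of 4 allows a share of up to 75% by 3 counts and 49% by the Wilson bound, with 14% in the whole list. The Wilson intervals of all 3 classes span the share of the whole list.

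The overlap threshold set part of this count, because 6 HNF4α peaks of the windows touched an HDAC3 or PROX1 peak over less than 50% of its length. They made up 12.2% of the HNF4α peaks of the windows and 6.12% of the whole list, and 3 of them lay at *Cebpa* and 2 at *Hnf4a*. When any contact was counted, 67.4% of the co-bound peaks of the windows carried HNF4α and 67.2% of all co-bound peaks.

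**Figure D2:**
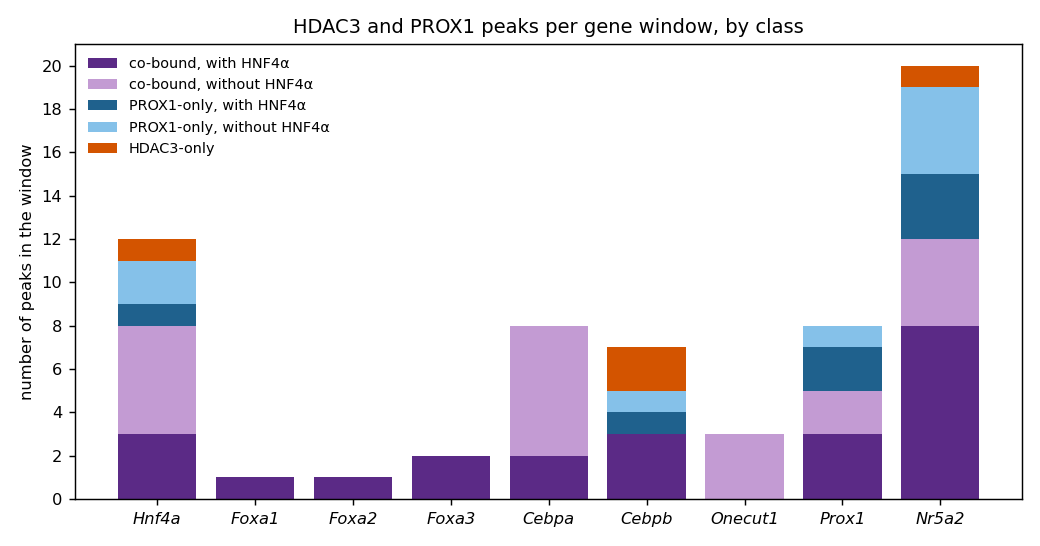
Number of HDAC3 and PROX1 peaks in the window of each gene. The y axis is the number of peaks, and the colours stack the classes with and without an HNF4α peak over at least 50% of the peak. *Nr5a2* has 20 peaks and *Hnf4a* 12, the 3 *Foxa* genes have triply bound peaks only, and *Onecut1* has 3 co-bound peaks without HNF4α.

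*Hnf4a*, which encodes the nuclear receptor mapped here, lies on the forward strand at chr2:163332544-163398646. Transcription in the adult liver is known to start at the downstream promoter, P1, annotated at 163372923, which is 40.4 kb past the first annotated start. The window held 8 co-bound peaks, of which 3 were triply bound, together with 3 PROX1-only peaks, 1 HDAC3-only peak and 9 HNF4α peaks. 2.86% of all genes had at least as many co-bound peaks, and 5.19% had at least as many per 10 kb.

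A run of 6 of the co-bound peaks lay in an intron between -8.63 and -5.39 kb from P1. In only 2 of the 22359 windows did 6 co-bound peaks fit within 5 kb, those of *Hnf4a* and of *Zmiz1*, and in 21 windows 5 did. This pattern was noticed in the data and is given as a count. The run also lay 1.54 to 4.78 kb past another annotated start, at 163362755. The HNF4α peak with the highest score of the window, 100.4, lay above 96.3% of the HNF4α list. It fell between the co-bound peaks at -6.47 and -6.22 kb from P1, covering 85 bp of the first and 15 bp of the other, so neither counted as triply bound. A second HNF4α peak within the run scored 73.5 and covered the last co-bound peak, at -5.39 kb from P1.

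The only HDAC3-only promoter peak of the 9 genes was centred -119 bp from P1, at chr2:163372704-163372903. No HNF4α peak touched it. HDAC3-only peaks fell within 1 kb of a TSS in 19% of the whole class, and 1.14% of genes had such a peak at a promoter. No HDAC3 or PROX1 peak was centred within 1 kb of the first annotated start of *Hnf4a*. Past P1 the gene held a triply bound peak with a score of 43.3 and 2 PROX1-only peaks, of which 1 carried HNF4α with a score of 23.1, and the third PROX1-only peak lay beyond the end of the gene. The remaining triply bound peak, at -34.9 kb, lay at the promoter of 2310001K24Rik rather than near an *Hnf4a* start, with a score of 39.6.

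The FOXA genes encode forkhead pioneer factors, which bind their sites in closed chromatin, and their windows held few peaks. *Foxa1*, on the reverse strand at chr12:58641618-58647108, had 1 co-bound peak, at 6.6 kb, just past the end of the gene, with an HNF4α score of 52.8. *Foxa2*, on the reverse strand at chr2:147868613-147872705, had 1, centred -176 bp from its start in the promoter, with a score of 43.8. *Foxa3*, on the reverse strand at chr7:19598631-19608887, had 2, of which the one in its intron at 7.3 kb carried the highest HNF4α score of all 9 windows, 111.7, which lay above 98.3% of the list. The other, at 10.4 kb, was centred just past the gene end with a score of 85.8, and the TSS nearest to it was that of *Irf2bp1*.

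All 4 co-bound peaks in the FOXA windows were triply bound, against 61.3% of all co-bound peaks. No PROX1-only or HDAC3-only peak was centred in these windows, which is common, since 25.2% and 7.4% of all windows held one. By the nearest TSS at any distance, 3 of 4 co-bound peaks at *Foxa1*, 12 of 19 at *Foxa2* and 1 of 1 at *Foxa3* were triply bound. By that count *Foxa1* also had 2 PROX1-only peaks and *Foxa2* 4. As a count a single co-bound peak is common, since 38.4% of genes had at least 1, and 25.3% had at least the 2 of *Foxa3*. At *Foxa3* a further HNF4α peak, with a score of 27.3, touched no HDAC3 or PROX1 peak.

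*Cebpa*, which encodes the C/EBP factor of the quiescent hepatocyte, is a gene of 1 exon on the forward strand at chr7:35904312-35906945. Its window held 8 co-bound peaks and no single-factor peak, where 25.2% of all windows held a PROX1-only and 7.4% an HDAC3-only peak. Per 10 kb it was the most densely co-bound of the 9, at 1.46, a density reached by 76 genes (0.34%). All 8 peaks were intergenic, between -38.2 and 4.1 kb, and none was within 1 kb of the TSS. HNF4α covered 2 of them over at least 50%, at -38.2 kb with a score of 76.3 and at -2.6 kb with a score of 70.7, and it touched 3 others by between 9.5% and 46.5%. The remaining 3 co-bound peaks had no contact with an HNF4α peak. The peak nearest to the start was co-bound and lay at -2.0 kb, without HNF4α. The most distal peaks lie nearer to the TSS of *Cebpg*, another C/EBP gene, so their target is not given by the window.

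*Cebpb*, which encodes a C/EBP factor induced in the acute phase and regeneration, is on the forward strand at chr2:167514415-167515918. Its window was unlike that of *Cebpa* in class, with 3 co-bound, 2 PROX1-only and 2 HDAC3-only peaks. At least 2 HDAC3-only peaks were found in 1.04% of all windows. They lay on either side of the gene, at -3.57 and 2.89 kb, at chr2:167510747-167510946 and chr2:167517208-167517407, and neither was touched by HNF4α. The 3 co-bound peaks, at -33.8, -30.7 and -17.5 kb, were all triply bound, against 61.3% of all co-bound peaks. Their HNF4α scores were 42.9, 44.3 and 52.8. They lay in introns of *Tmem189*, and the TSS nearest to each was that of *Tmem189*. Of the 13 co-bound peaks nearest to the *Cebpb* TSS at any distance, 5 were triply bound.

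The 3 highest HNF4α scores in the *Cebpb* window belonged to peaks that touched no HDAC3 or PROX1 peak. The highest, 90.9, was at -1.1 kb, and 83.4 and 80.6 were at -47.4 and -46.5 kb. Each of the 3 lay above at least 88.9% of the HNF4α list. The TSS nearest to the peaks scoring 83.4 and 80.6 was that of *Ube2v1*. Over all 9 windows, 13 HNF4α peaks (26.5%) touched no HDAC3 or PROX1 peak, against 31.4% in the whole list, and 4 of those 13 scored above the median of the list.

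*Onecut1*, which encodes the homeodomain factor HNF6, is on the forward strand at chr9:74709728-74737591. Its 3 co-bound peaks lay close together in an intron at 3.6, 4.3 and 4.9 kb, and the window held no other HDAC3 or PROX1 peak. It was the only one of the 9 windows without an HNF4α peak of any score. Of the 8586 windows with a co-bound peak, 7.17% had no HNF4α peak. 2 of the 3 peaks held ATCAAT, the core of the ONECUT site, on either strand, against 18.3% of all co-bound peaks. With 3 peaks this is a description only, and the other genes differed. No co-bound peak at *Hnf4a*, the *Foxa* genes, *Cebpb* or *Nr5a2* held the letters searched for the factor of its own gene. At *Cebpa* the peaks at -2.0 and 3.4 kb held the C/EBP letters and the other co-bound peaks did not. No letters were searched for PROX1.

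*Prox1*, which encodes one of the mapped factors, is on the reverse strand at chr1:191945660-191994559. The window held 5 co-bound and 3 PROX1-only peaks and no HDAC3-only peak, a class present in 7.4% of all windows. Of the 3 triply bound peaks, those at 22.7 and 39.6 kb, in introns, had HNF4α scores of 66.0 and 61.3. The co-bound peaks at -31.2 and 37.3 kb carried no HNF4α. The peak nearest to the TSS was PROX1-only, at 2.4 kb and without HNF4α, and the other PROX1-only peaks, at -10.4 and -14.0 kb, carried HNF4α with scores of 49.9 and 23.1. No peak was centred within 1 kb of the start, so the PROX1 peaks at the *Prox1* gene were distal or intronic.

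*Nr5a2*, which encodes the orphan nuclear receptor LRH-1, is on the reverse strand at chr1:138740161-138857004. It had the most peaks of the 9, with 12 co-bound, 7 PROX1-only and 1 HDAC3-only, and 16 HNF4α peaks. At least 20 HDAC3 or PROX1 peaks were found in 0.25% of all windows, at least 12 co-bound peaks in 0.644% and at least 7 PROX1-only peaks in 0.206%. Its window is also the longest of the 9, at 169 kb. At 0.711 co-bound peaks per 10 kb it was exceeded among the 9 by *Cebpa* only, and 4.68% of all genes had at least that density. HNF4α covered 8 of the 12 co-bound and 3 of the 7 PROX1-only peaks.

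Both peaks at the *Nr5a2* promoter were triply bound, at 781 and -359 bp, with scores of 47.1 and 52.3. The highest score, 82.0, was in an intron at 30.5 kb, and a peak with 79.6 covered 47.0% of a co-bound peak at 34.3 kb. The HDAC3-only peak, in an intron at 23.3 kb, held TAGGTCA, the extended half-site of Rev-erb and ROR receptors, which was found in 9.52% of all HDAC3-only peaks and in none of the other 3 of these windows.

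A promoter peak, centred within 1 kb of a TSS of the gene, was thus present at 3 of the 9 genes, *Hnf4a*, *Foxa2* and *Nr5a2*, against 9.15% of all genes. The promoter peaks were co-bound at *Foxa2* and *Nr5a2*, against 6.25% of all genes, and HDAC3-only at *Hnf4a*. No PROX1-only peak lay at a promoter of the 9. Since 2.53% of all genes had one, 9 genes are too few to show a lack. Including the one at 2310001K24Rik, 4 of the 43 co-bound peaks lay at a promoter (9.3%, against 7.91% of all co-bound peaks). In introns lay 25 (58.1%, against 46.9%), 14 were intergenic (32.6%, against 42.8%) and 0 were in exons, which allows a share of up to 6.98% by 3 counts and 8.2% by the Wilson bound, with 2.4% among all co-bound peaks.

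**Figure D3:**
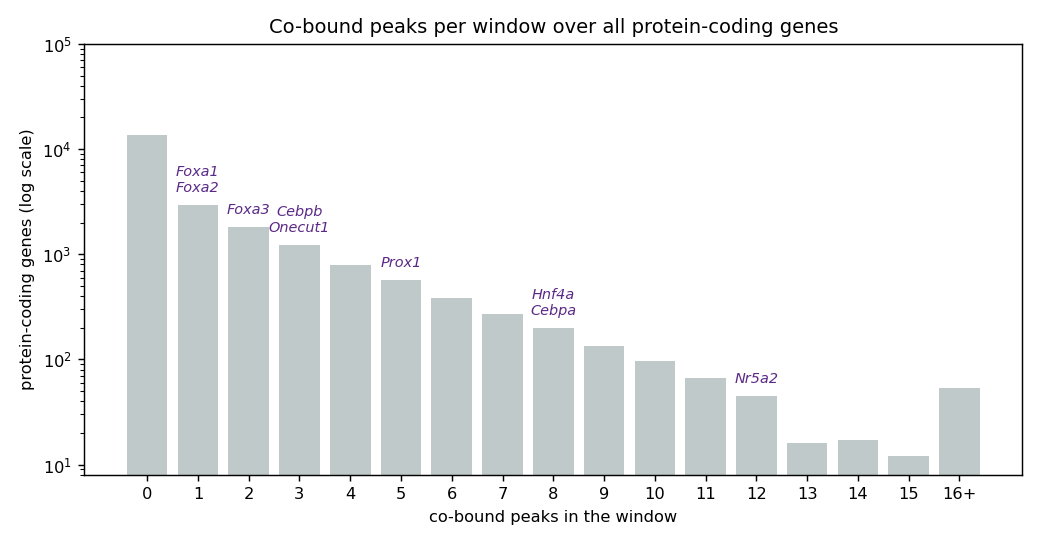
Number of co-bound peaks in the window of every protein-coding gene. The x axis is the number of co-bound peaks, with 16 or more in the last bar, and the y axis, a log scale, is the number of genes. The 9 genes are named above the bar they belong to, from 1 peak at *Foxa1* and *Foxa2* to 12 at *Nr5a2*.

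The scores of the HNF4α peaks were compared with the whole list. The rule that sets the windows does not use them, although the genes were listed with earlier results of these data known. Over the 49 peaks the median score was 47.1, with a range from 23.1 to 111.7, and over the list it was 41.9, with a range from 20.3 to 160.2. The peaks on co-bound sites scored above the list median in 20 of 23 cases (87.0%, 95% CI 67.9 to 95.5), and the same held for 65.3% of such peaks in the whole list. Their median was 52.8 against 52.3. Peaks covering a co-bound peak were 46.9% of the HNF4α peaks of the windows and 50.6% of the list. On PROX1-only sites 4 of 7 were above it, against 41.5%. Of those touching a peak below the threshold 3 of 6 were, against 53.4%, and of those without HDAC3 or PROX1 4 of 13 were, against 27.2%. Among these 4 kinds of peak the median was highest on co-bound sites, in the windows and in the list alike.

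**Figure D4:**
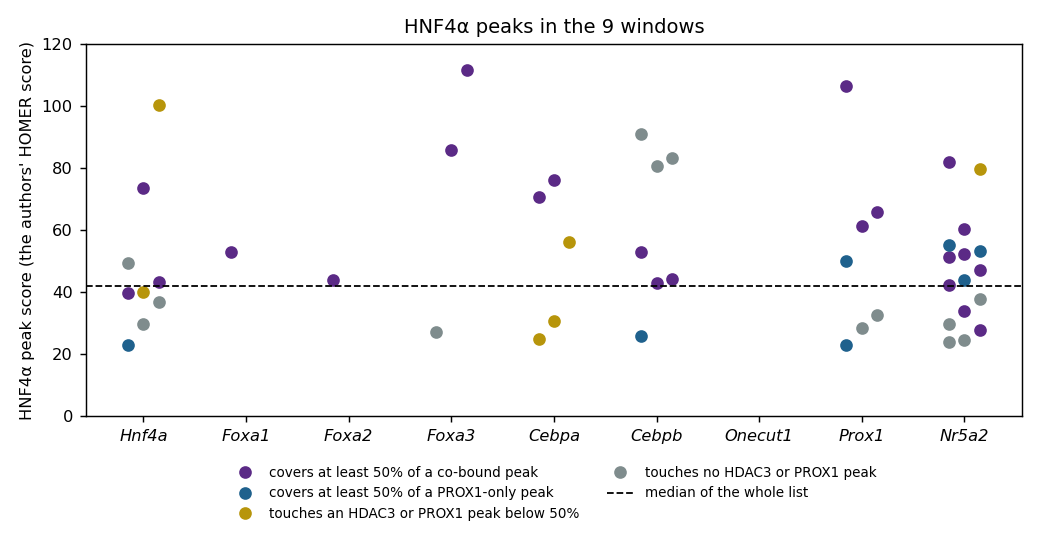
Score of each HNF4α peak in the windows. The y axis is the HOMER score of the authors, each point is 1 peak coloured by its contact with HDAC3 and PROX1 peaks, and the dashed line is the median of the whole list, 41.9. The 3 high grey points of the *Cebpb* window touch no HDAC3 or PROX1 peak, and *Onecut1* has no point.

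Recognition letters of the factors encoded by these genes were searched on both strands of the 200 bp peaks. TTGCNNAA, the C/EBP palindrome, was in 9 of the 43 co-bound peaks (20.9%, 95% CI 11.4 to 35.2), against 26.1% of all co-bound peaks. TGTTTAC, the FOXA site, was in 7 (16.3%, 95% CI 8.12 to 30), against 8.18%. ATCAAT, the ONECUT core, was in 6 (14.0%, 95% CI 6.56 to 27.3), against 18.3%. CAAGGTCA, the NR5A2 site, was in 1 (2.33%), against 4.76%. CAAAGTNCA, the longer HNF4α sequence that contains the core, was in 0, which allows a share of up to 6.98% by 3 counts and 8.2% by the Wilson bound, with 7.21% of all co-bound peaks holding it. TAGGTCA was also in 0, with the same limits, against 5.04%. The Wilson intervals of all 6 sets of letters span the share of all co-bound peaks, that of FOXA with its lower bound just under it. A match of letters is a description, not a bound site. Among the 15 PROX1-only peaks the ONECUT letters were in 4, against 24.8% of all PROX1-only peaks. The C/EBP, FOXA, NR5A2 and longer HNF4α letters were in 1 each, against 22.9%, 7.18%, 3.63% and 8.45%. TAGGTCA was in 0 of the 15, which allows a share of up to 20% by 3 counts and 20.4% by the Wilson bound, with 2.67% in the whole class. In the central 100 bp alone the FOXA letters were in 1 of the 43 co-bound peaks (2.33%, 95% CI 0.412 to 12.1), against 4.89% of all, so their share was no longer above that of the whole list. The C/EBP letters were in 2 (4.65%, 95% CI 1.28 to 15.5), against 18.1%, and the ONECUT letters in 4 (9.3%), against 12.8%.

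**Figure D5:**
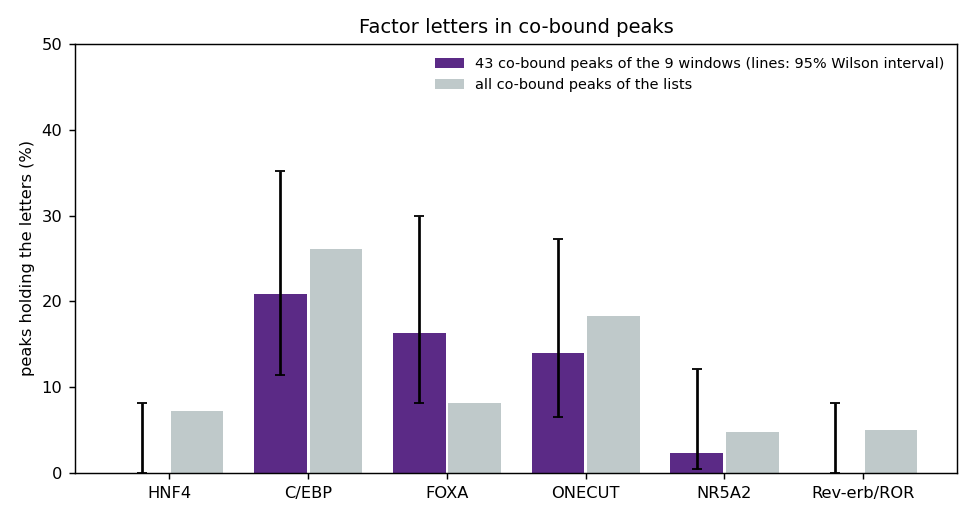
Share of co-bound peaks that hold the letters of each factor. The y axis is the percentage of peaks, dark bars are the 43 co-bound peaks of the windows with 95% Wilson intervals as lines, and grey bars are all 20039 co-bound peaks. FOXA is the one set of letters with a higher share in the windows over the whole 200 bp, 16.3% against 8.18%, and in the central 100 bp its share is 2.33% against 4.89%.

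A list of further liver-enriched transcription factor genes was read by the same rule. Of 21 such genes found in the annotation, 19 had a co-bound peak, against 38.4% of all windows, and 17 a triply bound one, against 31.1%. The median was 3 co-bound peaks, as in the 9 genes. Of the 97 co-bound peaks of the 21 genes 60.8% carried HNF4α, against 61.3% of all co-bound peaks. The window of *Cebpg*, which is on this list, overlaps that of *Cebpa*. Its 3 co-bound peaks are among the 8 of *Cebpa* and so were counted in both sets. *Ppara*, which encodes the fatty acid receptor of the fasting liver, had the most, 16, of which 10 were triply bound, and *Nr1h4*, the bile acid receptor FXR, had 11. *Hhex* and *Hnf4g* had none. *Rxra*, the partner of many nuclear receptors, was the only one of the 21 with an HDAC3-only peak, against 3 of the 9 and 7.4% of all windows. Among 16 transcription factor genes of other lineages, such as *Pax6*, *Sox2* and *Myod1*, 6 had a co-bound peak, 7 peaks in all. That share lay near the 38.4% of all windows, and the median was 0, as over all genes.

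The windows of marker genes were read as a check on the tissue, since whole liver holds several cell types. All 5 hepatocyte markers had co-bound peaks, 38 in all, against 38.4% of the windows of all genes with at least 1. Of 4 endothelial markers 2 had them, with 7 peaks, of 4 leukocyte and Kupffer markers 1, with 3, of 3 cholangiocyte markers 1, with 1, and of 3 stellate markers none. With 3 or 4 markers each, the counts of these other cell types cannot be told from the share of all genes. A peak of whole liver cannot be assigned to a cell type, and the part of other cells in the peaks of the 9 genes was not tested.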

How the data were processed

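The authors aligned ChIP-seq reads to mm9 with Bowtie 0.12.7, removed duplicates, pooled the replicates of each factor and called peaks with HOMER against IgG input, keeping peaks above 3-fold over input and above 2 rpm (normalized reads) for PROX1 and HNF4α or 1.5 rpm for HDAC3. They deposited 3 peak lists. For HDAC3 and PROX1 these hold coordinates alone, and for HNF4α also the HOMER score deposited by the authors, whose scaling is not stated and which orders peaks within that list. The study also names a filter of HNF4α peaks against the *Hnf4a* knockout, and whether the deposited list had passed it is not stated. Pooled calls can hide a peak carried by 1 library, and the limits remove weak sites, so a missing peak is not missing binding. The 200 bp width of the HDAC3 and PROX1 peaks, against 85 to 168 bp for HNF4α, sets how much of a peak can be covered. Co-bound peaks are identical in both lists, so the classes are those of the authors. The paper states that overlapping HDAC3 and PROX1 peaks needed a minimum overlap and at least 1 rpm of the other factor. A co-bound peak can therefore lie below the limit given above for HDAC3 or for PROX1. Its identical coordinates do not show that each factor was called there separately. H3K27Ac, RNA-seq and knockout samples were not analysed here.

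Peaks were placed by their centres with GENCODE protein-coding genes on NCBIM37, the assembly equal to mm9. No peak of 52884 reached beyond a chromosome end. No statistical test was made, since each list is 1 pooled call. The values of the 9 genes are given beside the same values over all genes or all peaks. The 9 genes, the gene lists, the letters and the rules were chosen with earlier results of these data known. All 9 genes were described, and in each the peak with the highest HNF4α score, the peak nearest the TSS, every promoter peak and every HDAC3-only peak were named where present, except 1 peak of *Prox1* that is not reported here. *Cebpd* was on the list of liver genes but is not protein-coding in this annotation and was left out. The overlap and class code was checked on simulated peaks. Alternatives changed the window, the overlap, the HNF4α list, the promoter, the searched width and the genes. Python 3.11.15, pandas 2.3.3, numpy 2.4.6, scipy 1.17.1, pysam 0.24.0, samtools 1.23.1 and matplotlib 3.10.9 were used.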

Additional observations from a re-analysis of the deposited data

How the results depend on the processing

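No paired analysis was possible because each list is 1 pooled call and no test was made. Assigning each peak to the gene with the nearest TSS instead of the window gave 97 co-bound, 31 PROX1-only and 7 HDAC3-only peaks and 99 HNF4α peaks, since it has no limit of distance. With 75% of the peak to be covered, 20.9% of the co-bound peaks carried HNF4α, against 32.5% of all co-bound peaks. With 40%, a setting chosen after seeing the data, the share was 62.8%, against 64.2%. Counting only HNF4α peaks above the list median score turned the order, with 46.5% of the co-bound peaks of the windows against 40% of all. In the central 100 bp, with fewer bases searched, the share with C/EBP letters moved to 4.65%, against 18.1% of all co-bound peaks, and that with FOXA letters to 2.33%, against 4.89%. Leaving out 1 gene at a time gave 31 to 42 co-bound, 8 to 15 PROX1-only and 2 to 4 HDAC3-only peaks, 33 to 49 HNF4α peaks with a median score of 45.5 to 50.6, and shares with HNF4α of 48.4% to 60.0% of co-bound and 41.7% to 50% of PROX1-only peaks. The lowest counts of PROX1-only and HDAC3-only peaks were those without *Nr5a2* and without *Cebpb*. The number of genes with a promoter peak was 4 within 2 kb of a TSS and 2 at the gene start only, where the *Hnf4a* peak at P1 was lost. Of the 37 alternatives other than leaving out a gene, 30 left the value within its interval or, for counts, within 1.5 times. The depth of the lists is unknown, so weak sites cannot be told from unbound ones.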

Other observations

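Counted by the nearest TSS, peaks inside the windows included, every gene but *Hnf4a* and *Foxa3* had more HDAC3 or PROX1 peaks than by the window. *Hnf4a* had 12 by either count, though not the same peaks, with 2 triply bound by the nearest TSS and 3 in the window. *Foxa3* had fewer. At *Foxa2*, which had 1 peak in its window, 23 HDAC3 or PROX1 peaks had the *Foxa2* TSS as the nearest protein-coding one, 19 of them co-bound and 12 triply bound, reaching 263.0 kb downstream, and the highest HNF4α score among its 16 HNF4α peaks was 103.2. At *Onecut1*, which had no HNF4α peak in its window, 16 co-bound peaks were nearest, of which 9 were triply bound, reaching 339.0 kb upstream, with 13 HNF4α peaks scoring up to 109.8. *Foxa3* had 1, against 2 in the window. At *Cebpb* 4 HDAC3-only peaks were nearest, against 2 in the window. These counts have no limit of distance and depend on how far the next gene lies.

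Genes with a make-up of the window like that of the 3 members with the most co-bound peaks were looked for among 22350 other genes, by the summed difference over 5 counts, those of triply bound, other co-bound, PROX1-only with and without HNF4α, and HDAC3-only peaks. The nearest to *Nr5a2* were *Banp* and *Ext1*, at a difference of 2, and *Lass6* at 3. The nearest to *Hnf4a* were *Galnt2* and *Lin7a*, at 1. A total of 11 genes lay within a difference of 2 of *Hnf4a*, and *Abtb2* comes first by symbol among those at 2. For *Cebpa* 3 genes had the same 5 counts, *1700017B05Rik*, *Ascc1* and *Slc25a25*.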
